A study of Mus musculus with 11 samples.

Results

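miR-126 was followed as a vessel readout in normal mammary glands of 3 mouse strains and in C3(1)/Tag mammary tumors. Members were chosen by name, as the spots annotated mouse miR-126 with any arm suffix among the plus-strand mouse miRNA spots of a custom array. The rule found 1 miRNA, miR-126-5p, of 334 miRNAs, on 4 of 1336 spots. The other arm, miR-126-3p, was not analysed here. Arrays were hybridised with Hy3-labelled total RNA, and the green brightness of the spots was read.

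The 11 arrays comprised 3 of C3(1)/Tag primary tumors, 3 of Balb/C glands (labelled Balbc), 3 of FVB129B6 glands and 2 of FVB glands, each from female mice. The tumor mice were of strain FVB and carried the SV40 T/t-antigen transgene, which the C3(1) sequence of a rat prostate gene drives in mammary ductal cells and weakly in other tissues. The glands were normal tissue, and the study's methods describe glands taken in late pregnancy, when epithelium fills more of the organ than in virgin mice. Ages were not given in the sources used here. Of the Balb/C titles, 2 share a code, so those samples may come from 1 mouse, and p-values then measure a spread that is partly technical. Each array was of bulk tissue, in which fewer cells of a type and less RNA per cell cannot be told apart.

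miR-126 is processed from a hairpin inside an intron of Egfl7, which encodes a protein secreted by endothelial cells, the cells that line blood vessels. Its best studied product, the -3p arm, represses Spred1 and Pik3r2, which restrain signalling downstream of vascular endothelial growth factor, and its loss makes vessels leaky. The -5p arm is cut from the opposite side of the same hairpin, represses Dlk1 in endothelial cells and is likewise used as an endothelial marker. Because few other cell types make much miR-126, its level in whole tissue is often read as vessel content.

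The sequences show which RNA the 4 spots can capture. The probe began with 21 bases complementary to miR-126-5p, given in DNA letters, and the remainder of the probe was a spacer. In the RefSeq annotation of build GRCm38.p6 the captured RNA lies on the plus strand at chr2:26591365-26591385, within the Mir126a hairpin at chr2:26591357-26591429 and within the Egfl7 gene at chr2:26581083-26592682. In miR-126-5p and miR-126a-3p the capitals mark the seed, bases 2 to 8 from the 5′ end, which pairs with target transcripts. miR-126a-3p is printed because it is the arm that the array spots named here do not capture. miR-126b-3p, made from the opposite strand, is printed because it contains the letters of the capture bases themselves (with U for T), marked in capitals, so that this RNA would not pair with the probe.
capture bases of the probe for miR-126-5p: CGCGTACCAAAAGTAATAATG
miR-126-5p: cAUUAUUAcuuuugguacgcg
miR-126a-3p: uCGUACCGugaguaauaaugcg
miR-126b-3p: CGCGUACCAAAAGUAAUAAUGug

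The capture bases hold 38.1% G and C, against a median of 47.6% over the 334 probes. Of those probes, 23 held less and 44 the same share. The probes nearest in sequence were those for miR-181b and miR-137, at 7 base edits among the 334 compared. Of 1738 mature mouse miRNAs in the RefSeq table, 0 shared bases 2 to 8 with miR-126-5p.

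Gland arrays read 209 to 262 of the 334 miRNAs above background, whereas the 3 tumor arrays read 15 to 64. The scanner program marks each spot that stands well above background, and a miRNA was counted as above background on an array where 50% or more of its spots had that mark. The median processed signal was 188.5 to 671.5 scanner units on the glands and 125 to 170 on the tumors. The 8 gland arrays shared a slide, the tumors lay on another, and the slides were read by different versions of the program, so tissue, slide and version cannot be told apart. All 10 epithelial miRNAs listed, among them the miR-200 family, were above background on every gland array, as were 204 of all 334 miRNAs. Of the 10, 5 were above it on no tumor array. These tumor arrays thus gave few readings of any cell type.

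miR-126-5p was dim in the glands and at background in the tumors. Brightness was first read as the median of a spot minus its local background, in scanner units, and was compared with 16 control spots of random 22-mers on the same array. On the FVB glands the 4 miR-126-5p spots averaged 65 scanner units on replicate 1 and 40.8 on replicate 2, where the random spots had medians of 46.5 and 39.5. On the Balb/C glands they averaged 48, 50.5 and 46 scanner units, against random medians of 34.5, 38 and 34.8. On the FVB129B6 glands they averaged 34.5, 40.3 and 57.3 scanner units, against 28, 32.3 and 37.8. Every gland mean was therefore higher than the random median beside it, and the margin was smallest on FVB replicate 2. On the tumors the miR-126-5p spots averaged 42.5, 42.5 and 46.4 scanner units, against random medians of 42.5, 43.5 and 45.3.

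**Figure D1:**
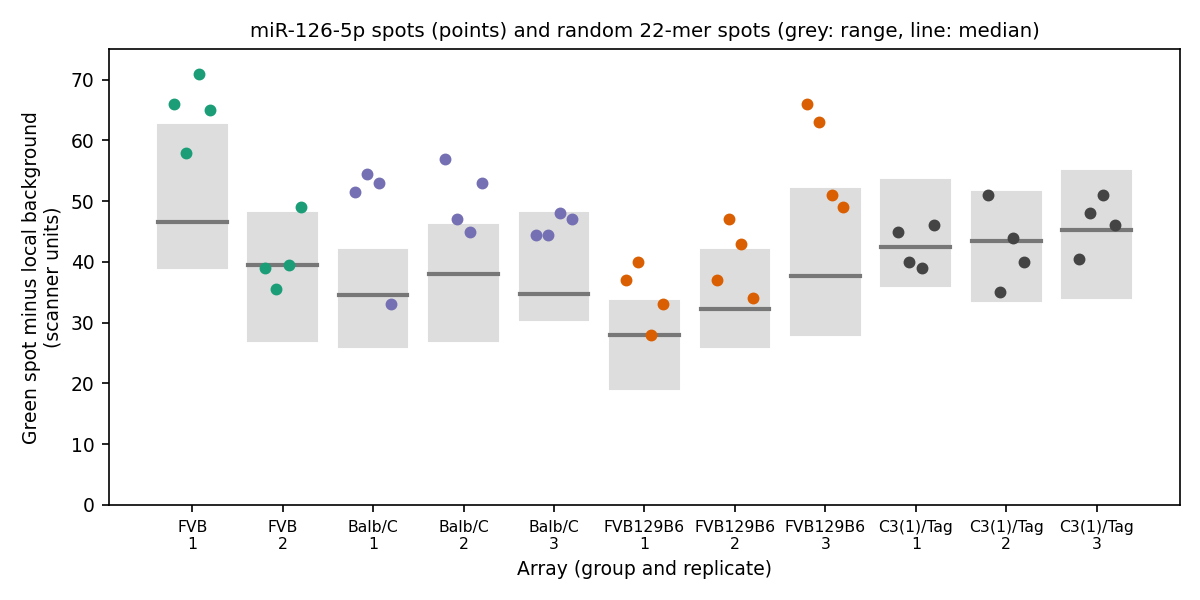
Brightness of the 4 miR-126-5p spots on each array (points, scanner units after subtraction of local background), with the range of 16 random 22-mer spots as a grey box and their median as a line. On the 8 gland arrays 16 of the 32 miR-126-5p spots lie above every random spot, and on the 3 tumor arrays 0 of 12 do.

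The ratio of miR-126-5p to the random spots placed the arrays on a scale that needs no array median. It was the geometric mean brightness of the miR-126-5p spots, without those the program marked as outliers, over the random median. The ratio was 1.39 and 1.02 on the FVB glands, 1.54, 1.32 and 1.32 on the Balb/C glands, and 1.31, 1.24 and 1.50 on the FVB129B6 glands. On the tumors it was 0.997, 0.968 and 1.02. In green the marker thus reached at most 1.54 times the brightness of random probes on any array, so a reading of vessel content from green brightness rests on a narrow range. The group means were 1.39 ± 0.12 (SD, n = 3) in Balb/C, 1.35 ± 0.14 (SD, n = 3) in FVB129B6, 1.21 ± 0.26 (SD, n = 2) in FVB and 0.996 ± 0.027 (SD, n = 3) in tumors. In that order the 3 strains overlapped with their neighbours, while each tumor lay below each gland, the nearest pair being 1.021 on a tumor and 1.024 on FVB replicate 2. Among the strains the logarithm of the ratio did not differ beyond the spread of replicates (exact permutation test of the F statistic, p = 0.45 over 560 relabelings). Tumors against the 8 glands gave a log2 ratio of -0.01 against 0.40, a difference of -0.41. No test of this difference is given, since the tumor spots were as bright as random probes and the tumors lay on another slide. The scale was also added after seeing the data.

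The program's own background calls gave a like picture. Of the 4 miR-126-5p spots, 4 were well above background on FVB replicate 1 and 0 on FVB replicate 2. On the Balb/C glands 2, 4 and 1 spots were, and on the FVB129B6 glands 2, 3 and 3. No spot was on any of the 3 tumor arrays, so that miR-126-5p was not well above background there. In the fits miR-126-5p met the filter through its gland arrays alone, and its tumor level is only a value at background. Of the 16 random spots, 2 were also called well above background on FVB129B6 replicate 3 and on FVB replicate 1, and 0 on each other array.

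To compare strains across all miRNAs, each level was taken as log2 of the processed green signal minus the median of that array, as in the global median normalization of the study. On this scale miR-126-5p had a level of -1.76 and -3.37 in the FVB glands, -3.19, -3.24 and -4.13 in the Balb/C glands, and -3.63, -3.65 and -3.38 in the FVB129B6 glands. FVB replicate 1 lay above all other glands, and FVB replicate 2 lay inside the range of the other strains. The group means were -2.57 ± 1.14 (SD, n = 2), -3.52 ± 0.53 (SD, n = 3) and -3.55 ± 0.15 (SD, n = 3) in FVB, Balb/C and FVB129B6 in turn.

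miR-126-5p did not pass the test among strains (limma F-test over the 8 gland arrays, adjusted p = 0.205), in which 46% of the 261 miRNAs tested passed. Balb/C minus FVB was -0.95 (SE 0.48, 95% interval -2.07 to 0.16, limma adjusted p = 0.148), where 37.9% of miRNAs passed in either direction. FVB129B6 minus FVB was -0.99 (SE 0.48, 95% interval -2.10 to 0.13, limma adjusted p = 0.136), where 39.5% passed. Balb/C minus FVB129B6 was 0.03 (SE 0.43, 95% interval -0.97 to 1.03, limma adjusted p = 0.987), where 3.45% passed. The intervals are wide, and none of the 3 shows that miR-126-5p was equal between strains. An exact permutation test of the F statistic on the levels gave p = 0.214, where the smallest possible was 0.00357.

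The call for miR-126-5p turned on the background correction and on a floor for dim values, as given in the closing section, and also on FVB replicate 2. Without it, and with the lone FVB array assumed to vary like the other groups, Balb/C minus FVB was -1.76 (limma adjusted p = 0.0225) and FVB129B6 minus FVB was -1.79 (limma adjusted p = 0.0162). Without FVB replicate 1 the same differences were -0.15 and -0.18. The random 22-mers moved with the strain contrasts by about as much as miR-126-5p did. Their mean level was lower by 1.11 in Balb/C and by 1.01 in FVB129B6 than in FVB, which left differences of 0.15 and 0.02 for miR-126-5p relative to them.

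**Figure D2:**
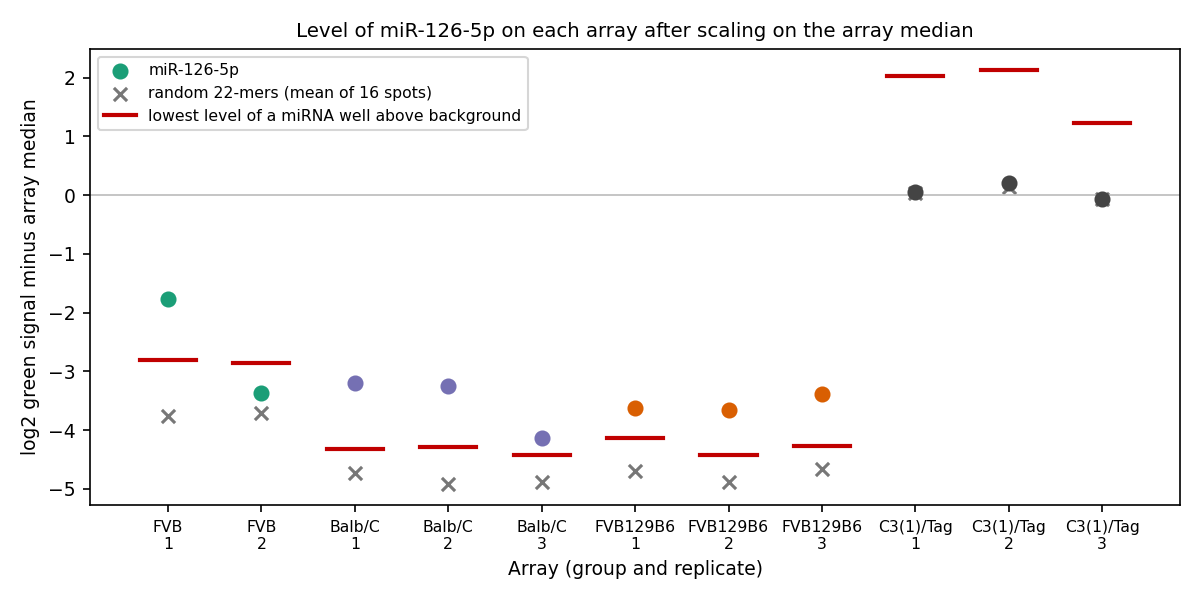
Level of miR-126-5p on each array (points, log2 green signal minus the array median), with the mean of the 16 random 22-mer spots (crosses) and the lowest level of any miRNA above background on that array (red lines). The tumor points, from -0.07 to 0.21, lie below the red lines and on the crosses, while 7 of 8 gland points lie above both.

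In the tumors the scaled level of miR-126-5p was 0.06, 0.21 and -0.07 (mean 0.07 ± 0.14, SD, n = 3), numerically above all 8 glands. The lowest level at which any miRNA was above background on those arrays was 2.02, 2.13 and 1.23. The tumor values are thus values at background on arrays whose median miRNA was also near background, and no fold can be given. As measured, the difference was 3.28 from the mean of the 3 strains and 2.64 from the FVB glands, the strain of the tumor mice. No p-value of these is given, since the tumor side was at background on each array and miR-126-5p entered the fit through the glands. For the same reason its filled tumor points in the figures are not read as tests. In the same contrasts 90.4% of all miRNAs tested passed against the mean of strains, 37.9% of all tested being higher in tumors, and 88.1% passed against the FVB glands.

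The direction of the tumor value turned with the scale. The random 22-mers, which are control probes, were higher in the tumors by 4.48 than in the mean of strains and by 3.77 than in the FVB glands on the array-median scale. miR-126-5p relative to them was lower in tumors by the remainder, with differences of -1.20 and -1.14 from processed signals. From brightness over local background, miR-126-5p relative to the random spots differed by -0.39 from the mean of strains and by -0.26 from the FVB glands.

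**Figure D3:**
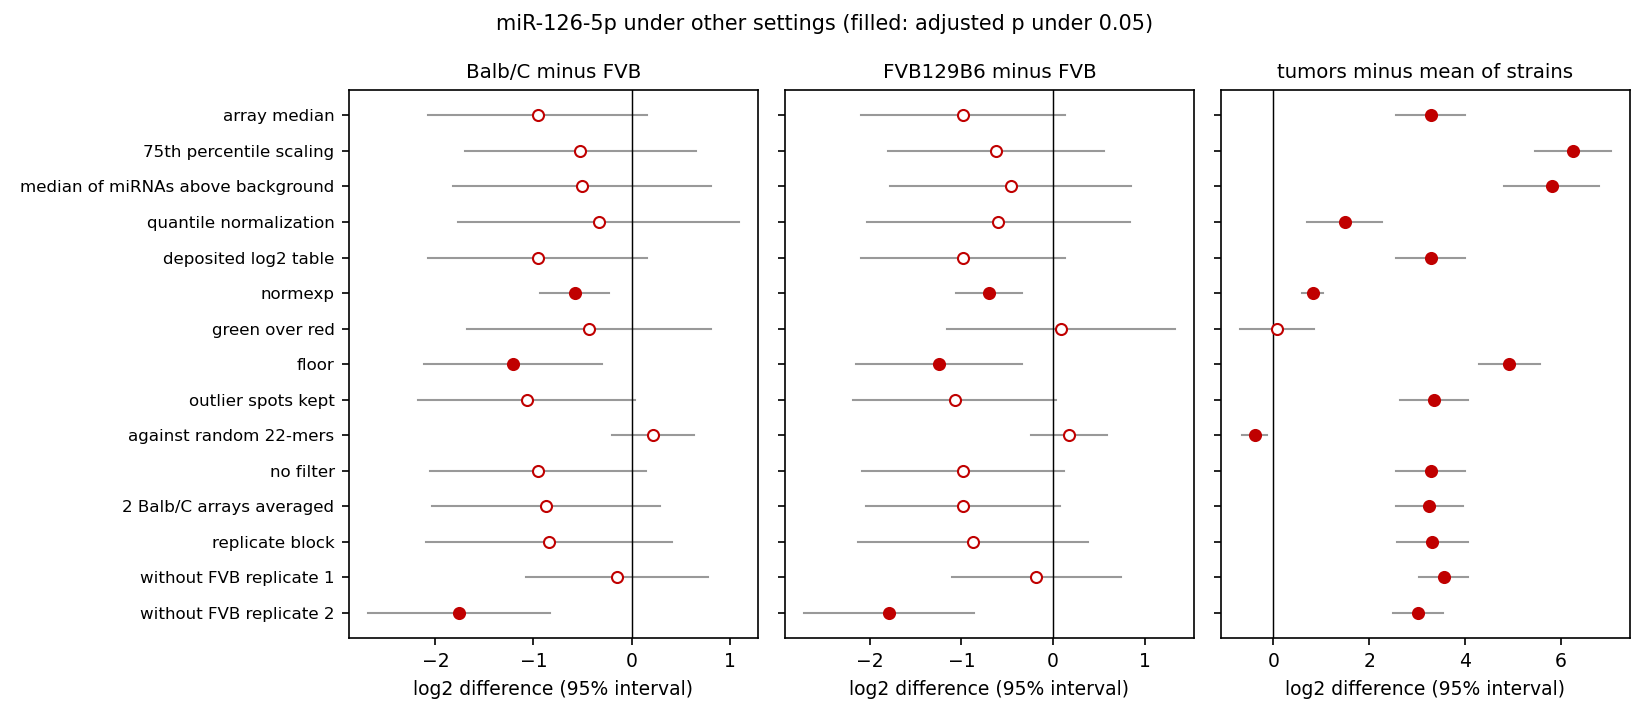
Log2 difference of miR-126-5p (points) with its 95% interval (lines) in 3 contrasts under each scaling, background or sample choice, where filled points have a limma adjusted p under the threshold of 0.05. In the tumor panel the fill is not read as a test. Differences from FVB lie below 0 under most choices and near 0 without FVB replicate 1, and the tumor difference, which rests on tumor values at background, runs from -0.39 against random 22-mers to 6.26 under 75th percentile scaling.

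Other miRNAs tied to vessels stood above background throughout the glands, but their direction between FVB and the other strains depended on the scale. The list held 20 miRNAs of endothelium and vessel growth, among them miR-210, induced by low oxygen, miR-296, induced in endothelium by growth factors, the miR-23, miR-24 and miR-27 cluster, and the miR-17 to miR-92 cluster. All 20 were above background on every gland array, as were 204 of all 334 miRNAs and every member of the other lists. On the array-median scale, on which the random 22-mers were also lower in both strains than in FVB, the members leaned the same way. In Balb/C minus FVB 9 were lower, 0 higher and 11 did not pass, with a median of -0.62 against -0.48 over all miRNAs tested. The called members included miR-24 (-0.66, adjusted p = 0.0124), miR-210 (-1.24, adjusted p = 0.0129) and miR-296 (-0.96, adjusted p = 0.0054), each by limma. In FVB129B6 minus FVB 7 were lower and 13 did not pass, with a median of -0.57 against -0.39 over all. Between Balb/C and FVB129B6 0 of the 20 passed (median -0.06 against 0.03), where 1.15% of all miRNAs were higher in Balb/C and 2.3% lower. Over all miRNAs tested 32.2% were lower in Balb/C and 5.75% higher, and 31.4% were lower in FVB129B6 and 8.05% higher. The contrasts with FVB share the FVB arrays, so they are not independent of each other. With 75th percentile scaling 0 of the 20 were called in Balb/C minus FVB, and in FVB129B6 minus FVB 1 was lower and 3 were higher. Against the random 22-mers 15 and 17 of the 20 were higher than in FVB and 0 lower, so the list has no direction that holds across scales. Of all 261 miRNAs tested, 47 and 83 were called in either direction with 75th percentile scaling. Against the random 22-mers 171 and 199 of the 261 were called. The median over all miRNAs moved with the scale likewise, from -0.48 to -0.05 and 0.86 in Balb/C minus FVB and from -0.39 to -0.03 and 1.06 in FVB129B6 minus FVB.

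Vessel-wall cells were represented by miR-143 and miR-145, which are made in smooth muscle and pericytes. In the FVB glands miR-143 had a mean level of 9.12, and its difference was -0.58 in Balb/C and -0.62 in FVB129B6 (limma adjusted p = 0.0859 and 0.0636). miR-145 differed by -0.66 and -0.69 (limma adjusted p = 0.0668 and 0.0564). Neither passed, and both depended on the FVB arrays. Without FVB replicate 1 both passed in both contrasts, miR-143 at -0.88 and -0.93 and miR-145 at -1.01 and -1.03 (limma adjusted p = 0.0163 to 0.0258 over the 4 values). Without FVB replicate 2 the 4 values lay between -0.35 and -0.28 and did not pass. Against the random 22-mers both were higher than in FVB, miR-143 by 1.00 in Balb/C and 1.20 in FVB129B6 (limma adjusted p = 0.00767 and 0.00236), so their direction also turned with the scale.

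miRNAs of blood cells, which vessels carry, were listed apart. Of the red cell miRNAs, miR-451 was lower than in FVB by 1.38 in Balb/C and by 2.59 in FVB129B6, written as differences of -1.38 (limma adjusted p = 0.0145) and -2.59 (limma adjusted p = 0.0028). miR-144, from the same transcript as miR-451, and miR-486 passed in FVB129B6 alone (-1.66 and -1.84, limma adjusted p = 0.0151 and 0.0038). In Balb/C they measured -0.75 and -0.44 and did not pass. The lower miR-451 in FVB129B6 was called under 75th percentile scaling (-2.22) and against the random 22-mers (-0.72), while that in Balb/C was not (-0.95 and 0.23). miR-144 and miR-486 measured 0.33 and 0.13 against the random 22-mers in FVB129B6. miR-486 was higher in Balb/C than in FVB129B6 (1.39, limma adjusted p = 0.0332). The 4 white cell miRNAs, miR-142-5p, miR-150, miR-155 and miR-223, passed in no strain contrast, and Balb/C replicate 2 stood apart in 3 of them. Its levels were 7.57 for miR-142-5p, 6.90 for miR-150 and 2.58 for miR-155, where the other Balb/C arrays had 3.78 and 3.85, 2.48 and 2.21, and 0.67 and 0.63. miR-223 was 4.47 there, against 4.16 and 4.34. Without that array miR-150 was lower than in FVB in Balb/C (-1.79, limma adjusted p = 0.0243) and in FVB129B6 (-1.84, limma adjusted p = 0.0116), and the other 3 did not pass. For miR-126-5p, Balb/C minus FVB without that array was -1.10 (limma adjusted p = 0.15).

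Other tissue was read in the same strain contrasts. The 4 skeletal muscle miRNAs (miR-1, miR-133a*, miR-133b and miR-206) were higher than in FVB in both other strains, by a median of 4.97 in Balb/C and 3.83 in FVB129B6, and all 4 were called in both contrasts under each setting run (medians 3.90 to 6.06 and 2.78 to 5.04). Of the 10 epithelial miRNAs 5 were lower in Balb/C than in FVB and 2 in FVB129B6, with medians of -0.98 and -0.27. Over all miRNAs tested 32.2% and 31.4% were lower and 5.75% and 8.05% higher, with medians of -0.48 and -0.39. Against the random 22-mers 5 and 8 of the 10 were higher and 0 lower, where 171 and 199 of all 261 miRNAs were called in either direction. The part of these cells in the miR-126-5p values was not tested.

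**Figure D4:**
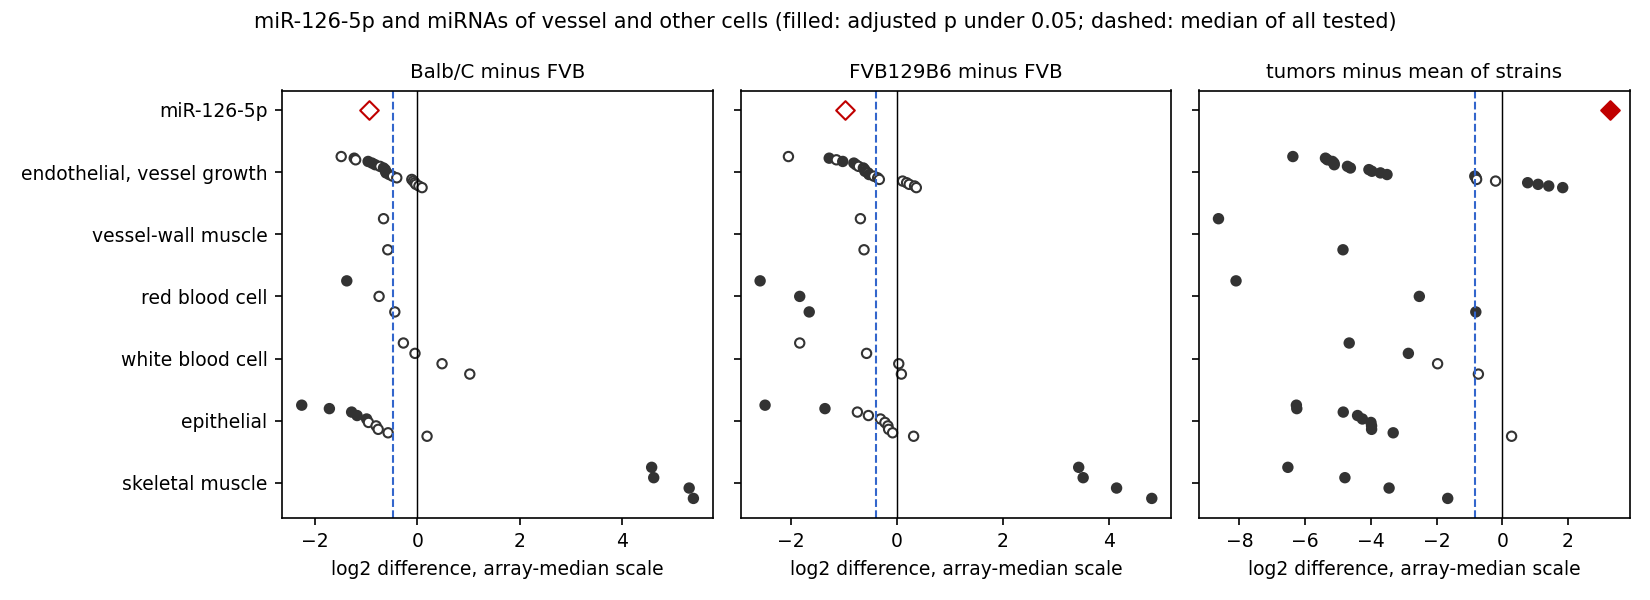
Log2 differences on the array-median scale for miR-126-5p (diamond) and for miRNAs of 6 cell types (circles), filled where the limma adjusted p is under 0.05, with the median of all 261 miRNAs dashed. The scale is the array median, and the endothelial values change direction on other scales. Tumor values are plotted as measured, including those at background, whose fill is not read as a test. In the tumor panel the miR-126-5p value of 3.28 is at background in the tumors and turns to -0.39 against the random 22-mers, and 13 of 20 endothelial and vessel-growth miRNAs are lower.

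In the tumors miR-143 and miR-451 were above background on no array. miR-145 was above it on all 3, with levels of 2.99, 2.53 and 3.67, and as measured differed by -4.85 from the mean of strains. Of the 20 endothelial and vessel-growth miRNAs 10 were above background on no tumor array and 2 on all 3. Against the mean of strains 13 of the 20 were lower, 4 higher and 3 did not pass, where 52.5% of all miRNAs were lower. Their median was -3.84 against -0.83 over all miRNAs. Against FVB glands 15 were lower and 1 was higher, where 52.5% of all miRNAs were lower and 35.6% higher. These counts are given as measured and are not a test of vessel content. Members above background on no tumor array met the filter through the glands alone, and tissue and slide cannot be told apart. With 75th percentile scaling 8 were higher and 12 lower than in the mean of strains, and against the random 22-mers 0 were higher and 20 lower. On these scales 242 and 244 of all 261 miRNAs tested were called in either direction, with medians over all of 2.14 and -2.54. Of the 4 members higher than the mean of strains, miR-132 and miR-296 were above background on no tumor array. Their tumor values (-0.09 and 0.86) are thus values at background, like that of miR-126-5p, and no fold can be given. The other 2, miR-221 and miR-222, which endothelial cells and many tumors make, were above background on 3 and 2 tumor arrays. From the mean of strains they differed by 1.09 and 1.41 (limma adjusted p = 0.0034 and 0.0027). Their tumor levels overlapped those of the FVB glands. miR-221 had 4.86, 3.83 and 5.28 in tumors against 3.56 and 4.12 in FVB, and miR-222 had 3.67, 2.53 and 4.49 against 2.34 and 3.05. Against the random 22-mers these were lower in tumors (-3.11 and -2.26).

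For members at background in tumors and bright in glands, the floor of the tumor arrays gives a least fold that holds only on the scale used, here the array median. miR-143 was at least 117-fold higher in the 8 glands than in the tumors, and miR-451 at least 76.2-fold. miR-20a and miR-17-5p were at least 13.4-fold and 12.6-fold higher in the glands, and miR-10a at least 4.96-fold. With 75th percentile scaling the bounds were 15.2-fold for miR-143, 9.91-fold for miR-451, 1.74-fold for miR-20a and 1.64-fold for miR-17-5p, and miR-10a had none. Few miRNAs were above background on the tumor arrays, so the median and the 75th percentile there were themselves near background. Neither set of values is therefore a least fold in amount of RNA. The floor was the mean over the tumor arrays of the lowest level above background, 1.80. miR-126-5p allowed no such fold, since its gland mean lay below that floor. Of the listed miRNAs at background in tumors, miR-132, miR-296, miR-378, miR-144, miR-155 and miR-183 allowed none over the 8 glands for the same reason.

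The level of miR-126-5p across the glands was also compared with that of every other miRNA. Each was centred on its own mean over the 8 gland arrays, and likeness was the root mean square difference on the log2 scale among 204 miRNAs above background on all 8. The nearest were miR-30e (0.212), miR-29b (0.277), miR-805 (0.298), miR-10a (0.316) and miR-132 (0.324), against a median of 0.656. The random 22-mers lay at 0.494. miR-10a and miR-132 were also on the endothelial and vessel-growth list, all 20 members of which were among the 204. Both had their highest gland level on FVB replicate 1 (5.35 and 0.31, against 3.96 and -0.58 on FVB replicate 2), as miR-126-5p did. miR-30e had means of 4.70 in FVB, 3.89 in Balb/C and 3.71 in FVB129B6, the same order as miR-126-5p.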

How the data were processed

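Total RNA of 11 samples was labelled and read on a custom array, with 4 spots per miRNA. The scanner files hold green and red intensity values that the authors extracted with Feature Extraction, version 10.5.1.1 for glands and 9.5.1.1 for tumors. The authors also deposited a log2 table of the processed green intensity, scaled on the array median. Samples were grouped by the strain and tissue in the labels. Here the log2 processed green signal minus the array median over 1336 spots was averaged per miRNA without outlier spots. A miRNA was tested where at least 50% of its spots were well above background on at least 3 arrays. limma 3.58.1 in R 4.3.3 was fitted to 8 gland arrays for strains and to all 11 arrays for tumors. Benjamini-Hochberg adjustment ran over 261 miRNAs with a threshold of 0.05. Exact permutation tests, means and figures were made in Python 3.11.15. The number of arrays limits the precision. The fit was tested on simulated data.

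miRNAs were named where they were miR-126 arms, listed markers that passed or define a cell type, or the 5 with levels most like miR-126-5p over the glands. These members and lists were chosen with earlier results of these data known. Other choices tried were the scaling, background correction, channel, filter, a floor for dim values, outlier spots, single arrays left out and the replicate number as a block. Replicate numbers did not pair the samples. Comparison with random 22-mers was added after seeing the data.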

Additional observations from a re-analysis of the deposited data

Results flagged for a closer look

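The red channel, which entered only the alternative of green over red, held signal at the miR-126-5p spots. On 8 of 8 gland arrays at least 2 of the 4 spots were well above background in red, and on the 3 tumor arrays 0 spots were. The red brightness over the random 22-mers of the same array was 1.98 to 2.46 on the glands and 0.824 to 1.13 on the tumors. Here it was the plain mean of all 4 spots over the random median, unlike the green ratio. The spots were dim, at 15.5 to 28.9 scanner units on the glands against random medians of 7.5 to 13.25. Random spots were also called in red, 1 on FVB129B6 replicate 1, 2 on Balb/C replicate 1, 1 on Balb/C replicate 2 and 1 on tumor replicate 1. By group the mean red ratio was 1.99 in FVB, 2.33 in Balb/C, 2.15 in FVB129B6 and 0.990 in tumors. The labels name the green dye alone, while the study's methods name Hy3 and/or Hy5. What the red channel held on these arrays was not given in the sources used here.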

How the results depend on the processing

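The value of miR-126-5p was tried under 21 other settings in each strain comparison and 23 in each tumor comparison, and the causes of the changes below were not tested. Among strains the adjusted p of 0.205 became 0.0175 with normexp background correction and ranged from 0.0273 (without FVB replicate 2) to 0.904 when single arrays were left out. Balb/C minus FVB passed at -0.58 with normexp and at -1.21 with dim values raised to the floor, reversed to 0.22 against the random 22-mers, and ranged from -1.76 to -0.15 over the left-out arrays. FVB129B6 minus FVB passed at -0.70 with normexp and -1.24 with the floor, reversed to 0.089 with green over red and 0.17 against the random 22-mers, and ranged from -1.79 to -0.18. Balb/C minus FVB129B6 reversed to -0.043 with the median of miRNAs above background and to -0.52 with green over red, and ranged from -0.13 to 0.34. With the tumor side at background, tumors minus the mean of strains went to 0.076 with green over red, reversed to -0.39 against the random 22-mers, and ranged from 3.01 to 3.55. Tumors minus FVB glands reversed to -0.039 with green over red and to -0.26 against the random 22-mers, and ranged from 1.83 to 3.44. Other scalings and corrections kept the tumor difference positive, at 6.26 (75th percentile), 5.81 (median of miRNAs above background), 1.49 (quantile) and 0.82 (normexp). The scale also moved the median of all miRNAs in tumors minus the mean of strains, from -0.83 to 2.14 with the 75th percentile and to -2.54 against the random 22-mers.

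Replicate numbers did not pair the samples: same-numbered arrays had deviations with a mean correlation of 0.04 (n = 7 pairs, -0.28 to 0.42) and other pairs -0.02. With the replicate number as a block the adjusted p among strains was 0.326 and the differences were -0.85, -0.88, 0.03, 3.31 and 2.73 in the order above, and no call between strains changed. The filter for miRNAs above background on every array left miR-126-5p out and gave no value. The planned tests of miR-126-3p relative to miR-126-5p were not run, since the -3p arm was not analysed here. With 2 FVB arrays and green brightness near that of random probes, the strain differences rest on small margins.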
